A study of Mus musculus with 58 samples.

Results

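The p53 damage response genes examined here were Cdkn1a, Mdm2, Ccng1, Plk2, Phlda3, Gdf15, Sesn2, Bax, Eda2r and Trp53inp1. They were chosen by name as targets of the transcription factor p53, with earlier results of these data known. The array carried 13 probes of these 10 genes among 55681 gene probes, of which 26413 could be paired with a symbol of 20018 genes. Cdkn1a, Eda2r and Trp53inp1 had 2 probes each. The 2 Cdkn1a probes were designed to different RefSeq transcripts, NM_007669 and NM_001111099, and are reported apart.

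Muta™Mouse males, a transgenic line whose inserted bacterial gene lets mutations be scored, were gavaged daily with benz(a)anthracene (BaA) in olive oil for 28 days, from an age of about 10 weeks. The D0 controls received olive oil alone, and the daily BaA dose was 20 mg/kg-bw in D1, 40 in D2 and 80 in D3. Lung, liver and forestomach of the same 20 mice were collected 72 h after the last dose, and RNA came from random sections of each organ. The labels number the mice 1 to 5 in D0, 6 to 10 in D1, 11 to 15 in D2 and 16 to 20 in D3. The groups held 5 arrays each, except 4 for D3 liver (mouse 20 is not analysed here) and 4 for D0 forestomach (mouse 5 is not analysed here), 58 arrays in all. A value is the log2 ratio of tissue RNA to a common mouse reference RNA, so 0 means equal signal in tissue and reference, and a difference of 1 is a 2-fold difference. Ratios of different probes cannot be set against each other as levels.

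BaA is a polycyclic aromatic hydrocarbon that cytochrome P450 enzymes convert to metabolites which bind DNA. In undamaged cells p53 is kept scarce by Mdm2, a ubiquitin ligase that marks it for degradation. DNA damage frees p53, which binds response elements near its target genes and switches on programmes of growth arrest, repair and cell death. The question was whether these targets moved with BaA dose in each tissue.

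A p53 response element is a pair of 10-base decamers, and the promoters of the members show where such decamers lie. In the RefSeq promoter windows (GRCm38.p6, 250 bases before to 50 after each annotated start), 9 of the 10 genes had a window and 11 windows were found in all. The p53 decamer, a pattern that equals its own reverse complement so that both strands are searched at once, was present in 4 of these 11 windows, those of 4 genes, and in 8.36% of all 32851 windows. Cdkn1a start 1 held 2 decamers with 12 bases between them, beginning 73 and 51 bases before the start, and a pair at most 13 bases apart was found in 0.0731% of all windows. The window of Cdkn1a start 2 held none. The Mdm2, Ccng1 and Bax windows each held 1 decamer, which began 186, 185 and 201 bases before the start. The sequences are shown because the windows of the 2 Cdkn1a starts differ in this respect. By the coordinates the start 1 pair also lies upstream of start 2 on the same strand, outside the start 2 window. Start 2 is therefore not shown to lack a p53 response element. Cdkn1a start 1 is chr17:29090829-29090978 (+ strand), start 2 is chr17:29093619-29093768 (+ strand), Mdm2 is chr10:117710905-117710974 (- strand), Ccng1 is chr11:40755432-40755501 (- strand) and Bax is chr7:45467060-45467129 (- strand). They are printed 5′ to 3′ on the gene's strand, all upstream of the start, with decamers in capitals. The table of starts does not say which start gives which transcript, and the match is of letters alone.
Cdkn1a start 1: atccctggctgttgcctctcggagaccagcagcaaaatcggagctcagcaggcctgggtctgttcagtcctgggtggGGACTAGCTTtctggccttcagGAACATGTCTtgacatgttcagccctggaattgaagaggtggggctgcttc
Cdkn1a start 2: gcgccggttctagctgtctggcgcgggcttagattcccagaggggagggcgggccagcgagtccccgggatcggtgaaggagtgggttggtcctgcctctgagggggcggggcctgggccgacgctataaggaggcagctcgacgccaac
Mdm2: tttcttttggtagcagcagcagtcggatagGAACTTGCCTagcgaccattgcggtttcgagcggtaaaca
Ccng1: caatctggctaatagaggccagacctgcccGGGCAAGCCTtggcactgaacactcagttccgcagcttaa
Bax: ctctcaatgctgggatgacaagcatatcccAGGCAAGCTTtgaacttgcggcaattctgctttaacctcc

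The tissues matched their labels. Mean log2 ratios of defining markers were 7.10 for lung markers in lung, 7.43 for liver markers in liver and 4.66 for squamous epithelium markers in forestomach. Between 32.8% and 68.5% of probes were well above background on an array, and correlations of replicate arrays ran from 0.835 to 0.980. Some pieces carried other tissue. In lung, mice 5 (D0) and 16 (D3) had squamous marker scores of 3.17 and 1.18 and muscle scores of 5.87 and 3.25, mouse 14 (D2) had a fat score of 5.75 and mouse 17 (D3) a T cell score of 1.33. In forestomach the mean log2 ratio of 5 glandular stomach markers was 4.78 to 6.35 on 10 arrays and 0.98 to 2.58 on the other 9. The high arrays were D0 mouse 2, all 5 D1 mice, D2 mice 14 and 15, and D3 mice 19 and 20. Fewer cells of a type and less RNA per cell cannot be told apart in such pieces.

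A probe was tested in a tissue when it was well above background on at least 4 of its arrays. This left 11 member probes each in lung and forestomach and 10 in liver, from 9 genes in every tissue. Eda2r, a receptor for an ectodysplasin isoform, was not tested in any tissue. Its NM_175540 probe was above background on 0 of 58 arrays and its NM_001161433 probe on 2 forestomach arrays, and their log2 ratios lay between -0.51 and 0.34. The Cdkn1a NM_001111099 probe was above background on 15 of 20 lung, 8 of 19 forestomach and 1 of 19 liver arrays and was not tested in liver.

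In lung, the NM_007669 probe of Cdkn1a was lower at D2 and D3, and Sesn2 was lower at D3. Bax had a rising slope but changed by less than 1.5-fold at each dose. The other tested probes, among them Cdkn1a NM_001111099, did not pass the threshold. A probe was called at an adjusted p of at most 0.05 (limma, Benjamini-Hochberg over all probes tested) and a fold change of at least 1.5. At D1, 0 of 11 member probes were called by limma, against 0.00329% of all 30381 probes tested. At D2, 1 of 11 was called, against 0.49% of all probes, and at D3 2 of 11, both lower, against 1.75% of all. An unadjusted p under 0.05 was found for 2 of the 11 at D1, 2 at D2 and 4 at D3. The shares of all probes were 7.39%, 15.9% and 23.5%. A slope, the straight line through the doses, was called at an adjusted p of at most 0.05 with no minimum fold change. It was called for 3 of 11 (Bax up, Cdkn1a NM_007669 and Sesn2 down), against 11% of all probes. The median log2 change of the 11 was 0.01 at D3, with 6 above 0 and 5 below, where 49.9% of all probes were above 0.

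Cdkn1a encodes p21, the inhibitor of cyclin-dependent kinases that carries out p53-dependent growth arrest. In the lungs of D0 mice 1 to 5, the log2 ratio of Cdkn1a (NM_007669) was -0.57, -0.54, -0.98, -0.87 and -0.26. In the D1 mice it was -1.11, -0.64, -1.43, -0.86 and -0.92. In the D2 mice it was -1.36, -1.19, -1.32, -1.03 and -1.81. All 5 D2 arrays lay below every D0 array, while D1 overlapped D0. In the D3 mice it was -1.37, -1.06, -1.23, -1.42 and -1.61, again below every D0 array. Groups without overlap, in either direction, were seen for 4.61% of all lung probes at D2 and 7.34% at D3. The mean was -0.64 ± 0.29 (SD, n = 5) at D0, -0.99 ± 0.30 at D1, -1.34 ± 0.29 at D2 and -1.34 ± 0.21 at D3.

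**Figure D1:**
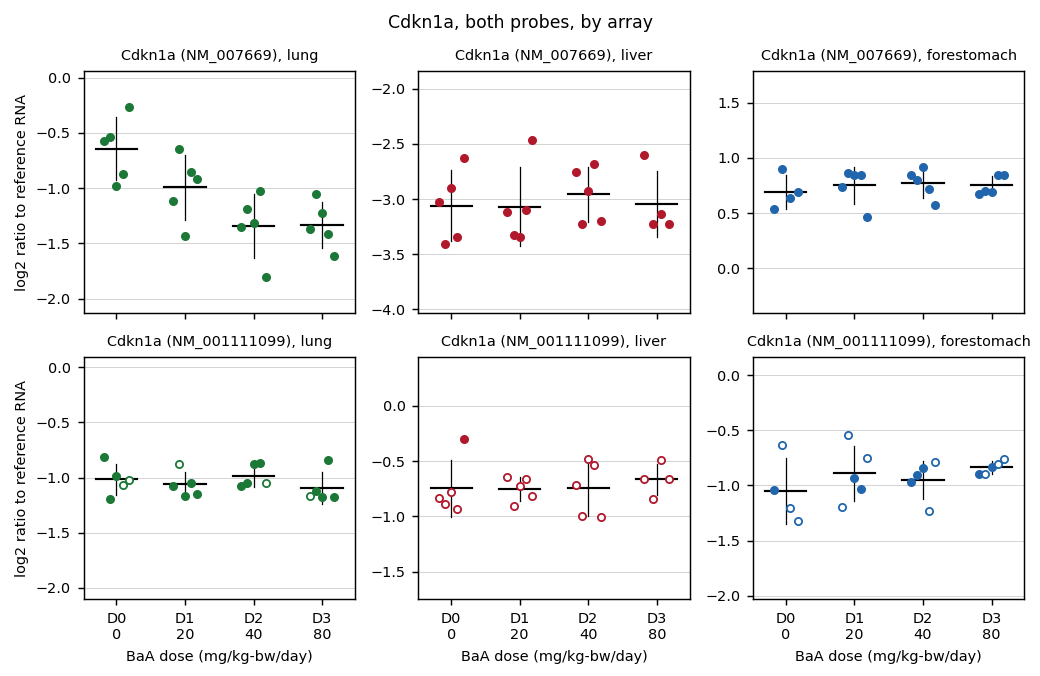
Log2 ratio (tissue over reference) of the 2 Cdkn1a probes on each array by dose group and tissue, with group mean ± SD as bars; filled points were well above background in the tissue channel and open points were not. For NM_007669 in lung all 5 D2 and all 5 D3 points lie under the lowest D0 point (-0.98), and the NM_001111099 points overlap between doses.

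Cdkn1a (NM_007669) differed from D0 by -0.35 on the log2 scale at D1 (SE 0.16, adjusted p = 0.66 by limma), which was not called. At D2 the difference was -0.70 (95% interval -1.03 to -0.36, adjusted p = 0.031 by limma), a 1.62-fold lower ratio. At D3 it was -0.69 (95% interval -1.03 to -0.36, adjusted p = 0.011 by limma), again 1.62-fold. The slope was -0.0084 per mg/kg-bw/day (adjusted p = 0.013). Within the 3 array slides, each of which held all dose groups, the D3 difference was -0.66, -0.44 and -0.85. The D2 difference was -0.72, -0.19 and -1.24. A lung slide held 1 or 2 arrays of a dose group, and slide 2 held 1 D0 and 1 D3 array. The within-slide differences, also those of Sesn2 and Bax below, therefore rest on few arrays. The reference channel of the same spots differed by 0.02 at D3. The probe was printed on 10 spots per array, and the SD between those spots had a median of 0.06 in lung, well under the spread between mice.

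The size of the Cdkn1a (NM_007669) difference was alike without lung mice 5, 14, 16 and 17, at -0.68 for D2 and D3, but with fewer arrays the adjusted p was 0.082 at D2 and 0.0504 at D3, so neither was called. The slope was called with those arrays left out (adjusted p = 0.030). With each array centred on its median in place of loess, the D2 difference was -0.048 (adjusted p = 0.93), the D3 difference was -0.35 (adjusted p = 0.95) and 0 lung probes were called by limma at any dose. Over the 31 alternatives the D2 difference ran from -0.78 to -0.048, and the call was lost under 10 of them. Among these were leaving out mouse 1, 2, 5, 11, 13 or 15 in turn, with differences of -0.70 to -0.58.

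The NM_001111099 probe of Cdkn1a was not called at any dose. Its lung log2 ratios were -0.81, -1.19, -0.98, -1.07 and -1.02 at D0 and -1.17, -1.12, -1.18, -0.84 and -1.18 at D3, and the groups overlapped. The differences from D0 were -0.05, 0.03 and -0.08 at D1, D2 and D3 (adjusted p = 0.61 at D3, 95% interval -0.26 to 0.09). This probe was dim, above background on 3 of 5 D0 and 4 of 5 D3 lungs. Across the 20 lung arrays the 2 Cdkn1a probes had a Pearson r of 0.21, with 0.50 over 19 liver and 0.27 over 19 forestomach arrays, as a description of arrays that share hybridisation and reference. The other genes whose lung pattern was most like NM_007669 over the 20 arrays were Eif4e (r = 0.85), Cct6a (0.84), Kpna3 (0.83), Ric1 (0.83) and Zcchc2 (0.82). For NM_001111099 they were Zfp27 (r = 0.78), A630001G21Rik (0.74), Mrpl22 (0.71), Nfxl1 (0.70) and Zbtb5 (0.69).

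Beside Cdkn1a, the arrest and feedback group held Mdm2, Ccng1 and Plk2, none of which was called at any dose. Mdm2 is induced by p53 and degrades it in return. Its lung log2 ratios were -0.24, -0.37, -0.23, -0.01 and -0.19 at D0 and 0.04, -0.10, -0.21, -0.13 and 0.04 at D3, and the groups overlapped. Its lung differences were -0.05, 0.09 and 0.14 (95% interval at D3 -0.02 to 0.29, adjusted p = 0.30). In liver the Mdm2 differences were -0.13, -0.06 and -0.10, and in forestomach -0.04, -0.14 and -0.03. Ccng1, which encodes cyclin G1, a partner of a phosphatase that acts on Mdm2, had lung differences of -0.08, -0.07 and 0.01, with a D3 interval of -0.26 to 0.29. Its differences were 0.01, 0.11 and 0.16 in liver and 0.09, 0.09 and 0.15 in forestomach, where its D0 arrays spread from -1.34 to -0.19.

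Plk2, a polo-like kinase of the centriole cycle, had positive differences from D0 in all 9 comparisons, none of which was called. In lung they were 0.33, 0.35 and 0.32 (adjusted p = 0.59, 0.19 and 0.14), in liver 0.21, 0.39 and 0.36, and in forestomach 0.32, 0.19 and 0.41. The 3 doses of a tissue share its D0 arrays. The forestomach log2 ratios were -1.79, -1.63, -1.99 and -1.65 at D0 and -1.39, -1.47, -1.17, -1.29 and -1.47 at D3. All D3 arrays lay above all D0 arrays, yet the adjusted p was 0.85, and 1.95% of all forestomach probes had D3 and D0 groups without overlap in either direction. In liver Plk2 was above background on 2 of 5 D0 and 4 of 4 D3 arrays, so its liver values lie near background. Over the 9 forestomach arrays low in glandular markers the Plk2 D3 difference was 0.46 (adjusted p = 0.17).

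Sesn2 encodes sestrin 2, a stress-induced protein that restrains the growth kinase mTORC1. Its lung log2 ratios were -0.70, -0.38, -0.58, -1.04 and -1.11 at D0. At D1 they were -0.78, -1.35, -0.61, -0.66 and -1.13, and at D2 -0.87, -1.06, -1.06, -1.24 and -1.26. At D3 they were -1.54, -1.53, -1.83, -0.94 and -1.01. Mice 16 to 18 lay below every D0 mouse at D3, while mice 19 and 20 fell inside the D0 range. The differences were -0.14, -0.34 and -0.61 at D1, D2 and D3, of which the D3 value was called (SE 0.18, adjusted p = 0.038 by limma, 1.53-fold lower), as was the slope (adjusted p = 0.017).

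The Sesn2 call at D3 in lung lay near both thresholds. It was lost under 14 of 31 alternatives, over which the difference ran from -0.72 to -0.27. These included leaving out mouse 1, 2, 3, 16, 17 or 18, with differences of -0.60 to -0.50 and adjusted p of 0.061 to 0.10. Without mice 5, 14, 16 and 17 Sesn2 was at -0.59 (adjusted p = 0.16) and its slope was no longer called (adjusted p = 0.10). Within slides the D3 difference of Sesn2 was -0.999, -0.36 and -0.35.

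In forestomach Sesn2 differed from D0 by -0.36, -0.48 and -0.53 at D1, D2 and D3, and in liver by 0.14, 0.06 and -0.27, none of them called. All 5 D1 forestomachs but 1 of 4 D0 forestomachs were rich in glandular stomach markers, so for D1 dose and piece content cannot be told apart for any member. The mean score of the 2 fat markers was 3.78 in D0 forestomachs (0.62 to 5.51) and 1.68, 2.60 and 1.60 at D1, D2 and D3, and its part in the member values was not tested. The forestomach Sesn2 log2 ratios were 0.34, -0.12, 0.62 and 0.26 at D0 and -0.09, 0.09, -0.23, -0.53 and -0.50 at D3. The groups overlapped. D0 mouse 2, the lowest control, was a piece rich in glandular stomach markers, and the lowest D3 values were from mice 19 and 20, pieces of that kind too. Over the 9 forestomach arrays low in those markers, none of them from D1, the D3 difference was -0.48 (adjusted p = 0.20). The part of glandular tissue in the Sesn2 values was not tested further.

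**Figure D2:**
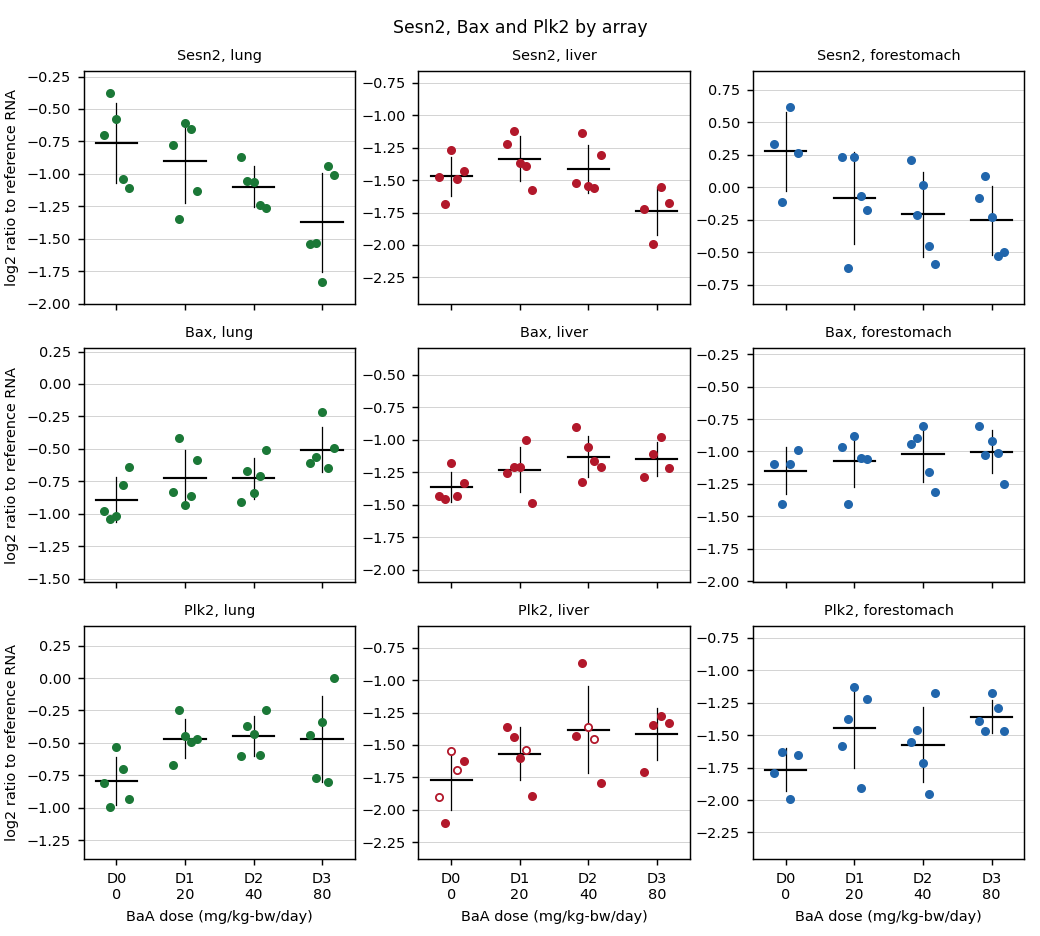
Log2 ratio of Sesn2, Bax and Plk2 on each array by dose group in lung, liver and forestomach, with mean ± SD; filled and open points as for Cdkn1a. Sesn2 in lung reaches -1.83 at D3 with 2 D3 arrays inside the D0 range, all 5 D3 lungs lie above the Bax D0 mean of -0.89, and all 5 D3 forestomachs lie above the highest Plk2 D0 array.

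Phlda3 and Gdf15 complete the growth and survival signalling group with Sesn2. Phlda3 encodes a small lipid-binding protein that competes with the kinase Akt for the membrane. Its differences were -0.04, 0.01 and 0.03 in lung and 0.02, 0.11 and 0.03 in liver. In forestomach they were -0.32, -0.41 and -0.30 (95% interval at D3 -0.71 to 0.12). Phlda3 was 0.59 to 1.03 at D0 there, and its lowest arrays, mouse 14 at -0.28, mouse 7 at -0.23, mice 19 and 20 at 0.20 and 0.21 and mouse 15 at 0.24, were all among the 10 pieces rich in glandular markers.

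Gdf15 encodes a secreted stress cytokine of the TGF-beta family. Its lung differences were 0.06, -0.21 and -0.02 and its liver differences 0.05, 0.53 and 0.12, of which the liver D2 value had an adjusted p of 0.42. The 5 D2 livers (-0.84, -0.86, 0.21, -0.19 and -0.16) lay above the D0 mean of -0.90 but overlapped the D0 range of -1.37 to -0.22. In forestomach Gdf15 differed by 0.07, -0.20 and -0.07. Its forestomach ratio was -2.95 to -2.20 on 6 arrays (mice 2, 7, 10, 15, 19 and 20), all among the 10 rich in glandular markers, and -3.88 to -3.54 on the other 13.

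Bax encodes a protein that opens pores in the mitochondrial outer membrane during apoptosis. Its lung log2 ratios were -0.98, -1.04, -1.02, -0.78 and -0.64 at D0 and -0.61, -0.56, -0.21, -0.65 and -0.50 at D3. The 5 D3 arrays lay above the D0 mean, and 1 D0 array, that of mouse 5, reached into the D3 range. The lung differences were 0.17, 0.16 and 0.39, and at D3 the adjusted p was 0.037 by limma with a fold change of 1.31, under the 1.5-fold minimum. The Bax slope was called at 0.0045 per mg/kg-bw/day (adjusted p = 0.029), and under 23 of 29 alternatives. The call was lost on leaving out mouse 1, 2, 3 or 18 (adjusted p of 0.052 to 0.088), with Agilent processed signals (0.076) and with median centring (0.98). Within slides the D3 difference of Bax was 0.42, 0.37 and 0.36. In liver Bax differed by 0.13, 0.23 and 0.22, and in forestomach by 0.07, 0.12 and 0.14, all uncalled.

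Trp53inp1 encodes a nuclear protein that raises p53 activity, and both of its probes were designed to NM_021897. Probe 1 differed from D0 by -0.07, 0.02 and 0.15 in lung, by -0.21, -0.36 and -0.21 in liver and by -0.06, -0.03 and 0.17 in forestomach. Its liver log2 ratios were 0.48, 0.57, 0.83, 0.65 and 0.80 at D0 and 0.40, 0.15, 0.24, 0.17 and 0.55 at D2. Of the D2 livers, only that of mouse 15 lay inside the D0 range, and the difference was not called (95% interval -0.61 to -0.12, adjusted p = 0.16). Probe 2 gave -0.01 in the same livers, and its differences in the 3 tissues lay between -0.09 and 0.02.

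In liver 0 of 10 member probes were called by limma at each dose, against 0.241%, 0.483% and 0.395% of all 22786 probes at D1, D2 and D3. Unadjusted p was under 0.05 for 0, 3 and 3 of them, and for 7.66%, 13.6% and 15.8% of all probes. In forestomach 0 of 11 were called by limma at each dose, against 0%, 0.00928% and 0.0248% of all 32313 probes. There 0, 1 and 2 of the members had an unadjusted p under 0.05, as had 4.85%, 3.49% and 5.03% of all probes. Limma called 0 member slopes in liver, against 0.908% of all slopes, and 0 in forestomach, against 0.0309%. Slopes with an unadjusted p under 0.05 were 3 of the liver members (16% of all probes) and 2 of the forestomach members (5.17% of all). For Cdkn1a (NM_007669) the liver means were -3.06, -3.07, -2.96 and -3.05 from D0 to D3 and the forestomach means 0.69, 0.75, 0.77 and 0.75. The D3 interval of Cdkn1a was -0.39 to 0.42 in liver and -0.15 to 0.26 in forestomach.

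**Figure D3:**
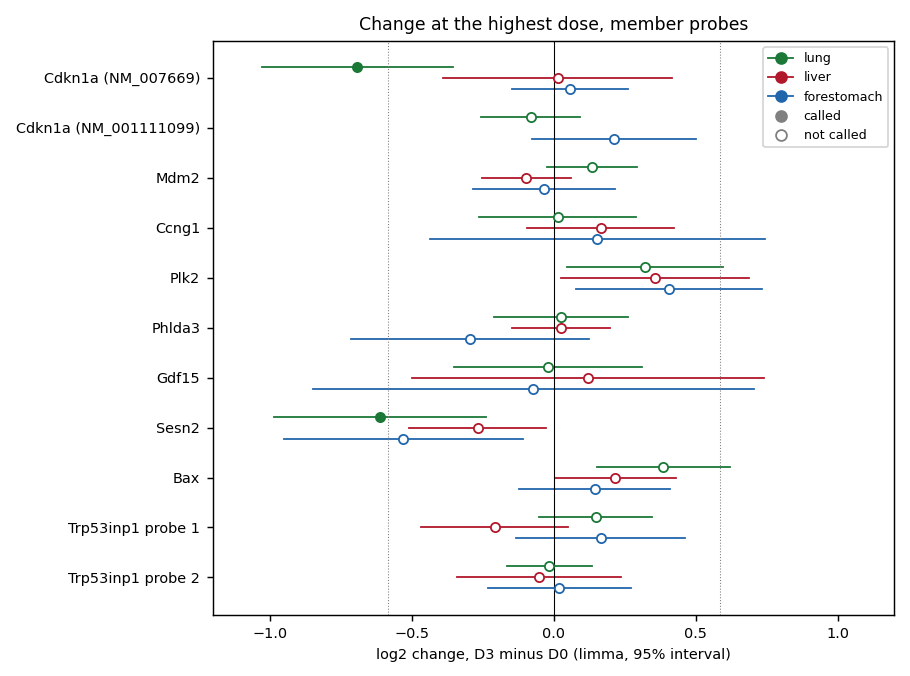
Log2 change from D0 to D3 of each tested member probe in lung, liver and forestomach, with 95% intervals from limma; filled points were called (adjusted p at most 0.05 and at least 1.5-fold) and open points were not. Cdkn1a (NM_007669) at -0.69 and Sesn2 at -0.61 in lung are the called points.

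The difference between tissues in the D3 change was tested directly. The Cdkn1a (NM_007669) change in lung minus that in liver was -0.71 (95% interval -1.16 to -0.25, adjusted p = 0.081 by limma) and minus that in forestomach -0.75 (-1.21 to -0.29, adjusted p = 0.20), so the fall in lung was not shown to be particular to lung. For Sesn2 these differences were -0.34 and -0.08, and for Bax 0.17 and 0.24. Trp53inp1 probe 1 differed by -0.37 between liver and forestomach (adjusted p = 0.65). By limma, 0 of 10 member probes were called for lung minus liver (2 with an unadjusted p under 0.05), where 2.04% of all probes were called. By the same tool 0 of 11 were called for lung minus forestomach (1 under 0.05), against 0.246% of all, and 0 of 10 for liver minus forestomach (1 under 0.05), against 0.0227%. Of all probes, 14.4%, 8.39% and 7.19% had an unadjusted p under 0.05, in the same order of comparisons.

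Between the control tissues most members differed by more than they did with dose. Of the 11 member probes tested, 7 were called between D0 lung and liver, 8 between lung and forestomach and 6 between liver and forestomach, against 46.8%, 30.5% and 39.1% of all probes. Each slide held arrays of 1 tissue, so slide and tissue cannot be told apart. Cdkn1a (NM_007669) was highest in forestomach (0.69 ± 0.15, SD, n = 4), lower in lung (-0.64 ± 0.29, n = 5) and lowest in liver (-3.06 ± 0.32, n = 5), a 13.5-fold lower ratio in liver than in forestomach. The D0 arrays of the 3 tissues did not overlap. Phlda3 followed the same order, with 0.76 ± 0.19 in forestomach, -0.03 ± 0.17 in lung and -2.91 ± 0.10 in liver, and so did Sesn2, with 0.28 ± 0.30, -0.76 ± 0.31 and -1.47 ± 0.15. All 3 pairs of tissues differed by limma for these 3 probes.

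Mdm2, Plk2 and Ccng1 were highest in D0 lung. Mdm2, whose D0 arrays in lung overlapped neither other tissue, was at -0.21 ± 0.13 in lung, -0.95 ± 0.27 in forestomach and -1.16 ± 0.08 in liver. Ccng1 was at -0.20 ± 0.30, -0.84 ± 0.48 and -1.56 ± 0.15, and Plk2 at -0.79 ± 0.18, -1.77 ± 0.16 and -1.77 ± 0.23. Liver and forestomach were not called apart for Mdm2 or Plk2. Gdf15 was highest in liver (-0.90 ± 0.44), then lung (-2.37 ± 0.33) and forestomach (-3.30 ± 0.73), and the liver to forestomach difference was 2.40 (adjusted p = 1.1e-09 by limma). Trp53inp1 probe 1 was at 0.89 ± 0.19 in lung and 0.67 ± 0.15 in liver, which were not called apart, and at -0.61 ± 0.34 in forestomach. Its probe 2 was at -0.21 ± 0.12, -0.08 ± 0.26 and -0.59 ± 0.20, with differences under 1.5-fold. Bax (-0.89 ± 0.17, -1.37 ± 0.11 and -1.15 ± 0.18 in lung, liver and forestomach) and the Cdkn1a NM_001111099 probe were called between no tissues, the largest Bax difference being 1.39-fold.

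**Figure D4:**
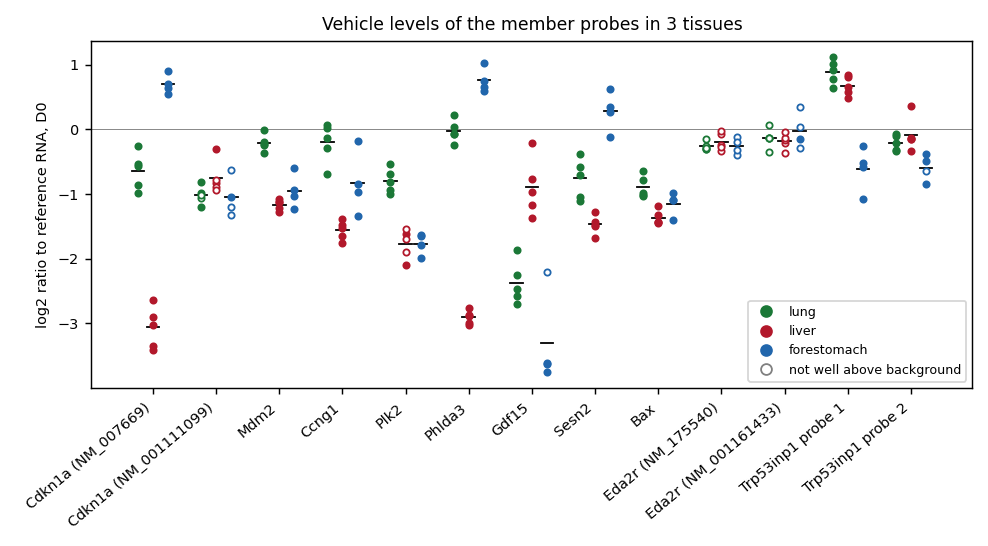
Log2 ratio of each member probe in the D0 arrays of lung, liver and forestomach, with the mean as a line. Open points were not well above background. Cdkn1a (NM_007669), Phlda3 and Sesn2 run from forestomach down to liver (Cdkn1a from 0.69 to -3.06), and Gdf15 is highest in liver (-0.90). The Eda2r points are near 0 and open, except 1 filled NM_001161433 point in forestomach.

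The wider p53 pathway was read from 25 further genes, of which all 25 were tested in lung and in forestomach, and 21 in liver. For lung, limma called 0 at D1 and D2, where 1 and 5 had an unadjusted p under 0.05, and 1 at D3, higher, with a list median of -0.05. Of all lung probes 0.00329%, 0.49% and 1.75% were called at D1, D2 and D3. An unadjusted p under 0.05 was found for 7.39% of all at D1 and 15.9% at D2. Limma called 0 in liver (3, 5 and 3 with an unadjusted p under 0.05 at D1, D2 and D3) and 0 in forestomach (2, 2 and 3), where the D3 medians were -0.07 and 0.04. Of all probes, 0.241%, 0.483% and 0.395% were called in liver and 0%, 0.00928% and 0.0248% in forestomach. The shares with an unadjusted p under 0.05 were 7.66%, 13.6% and 15.8% in liver and 4.85%, 3.49% and 5.03% in forestomach. The gene called in lung was Ddb2, which encodes the damage-sensing subunit of nucleotide excision repair. Its lung mean went from -1.72 ± 0.11 at D0 to -1.67 ± 0.21, -1.24 ± 0.29 and -0.94 ± 0.23 (SD, n = 5 each). The Ddb2 difference was 0.77 at D3 (SE 0.13, adjusted p = 0.0016 by limma), and its slope had an adjusted p of 0.00049, where 11% of all lung slopes were called. With median centring no lung probe was called at any dose, and the other alternatives were not examined for Ddb2. In liver Ddb2 differed by -0.35, -0.37 and -0.21 and in forestomach by -0.07, -0.05 and -0.06, none called.

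The other called gene of the list, by its slope in liver, was Ppm1d, a phosphatase that switches the damage response off. Its liver mean was -0.49 ± 0.14 at D0 and -0.22 ± 0.10, -0.17 ± 0.09 and -0.07 ± 0.14 at D1, D2 and D3. The Ppm1d slope in liver was 0.0048 per mg/kg-bw/day (adjusted p = 0.047 by limma), and its D3 difference of 0.42 (adjusted p = 0.023) was under 1.5-fold. That slope lay near the threshold, 0.908% of all liver slopes were called, and the alternatives were not examined for Ppm1d. By role, in lung at D3 the 5 DNA repair genes had a median of 0.11, the 9 cell death genes -0.10, the 3 growth arrest genes -0.08, the 5 regulators -0.15 and the 3 metabolism genes 0.0026. Of the 9 cell death genes, none of which was called, 2 were above 0, where 49.9% of all lung probes were above 0.

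**Figure D5:**
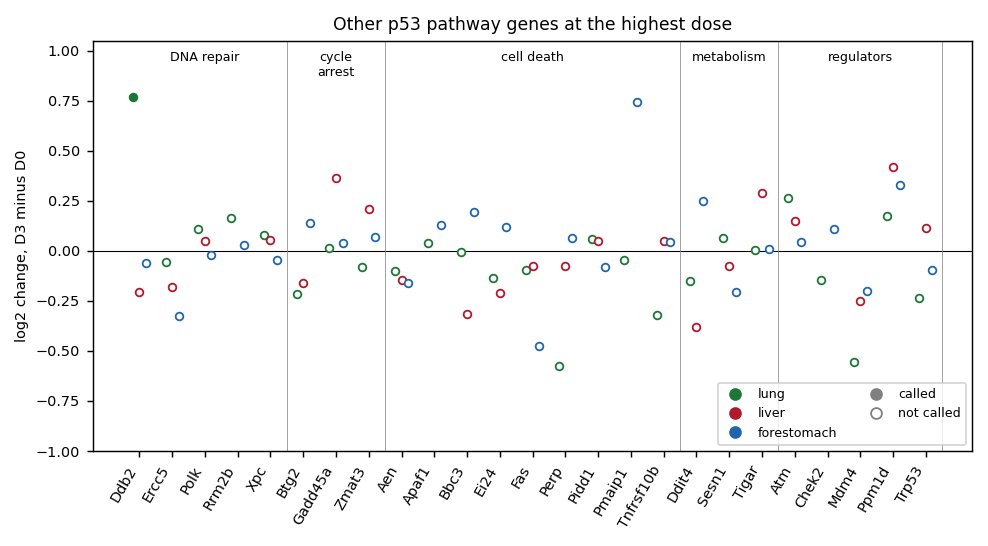
Log2 change from D0 to D3 of the further p53 pathway genes by role in lung, liver and forestomach; filled points were called by limma. Ddb2 in lung (0.77) is the filled point, and the other genes lie around 0.

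Other gene groups moved with dose in the same lungs as Cdkn1a, Sesn2 and Bax. The mean log2 ratio of 7 heat shock genes went from 1.44 at D0 (1.15 to 1.80) to 0.69, 0.42 and 0.25 at D3 (0.03 to 0.54), and 5 of the 7 were called lower at D3. Of 8 clock output genes 6 were called higher at D3, and of 3 tested clock genes of the opposite phase 3 were called lower. Limma called 0 of 4 glucocorticoid-responsive genes at D3 (3 with an unadjusted p under 0.05), whose score was 2.21 at D0 and 1.54 at D3. Over the whole set tested in lung, the called share was 1.75% for D3 and 0.49% for D2. The share with an unadjusted p under 0.05 was 23.5% for D3, against which the counts of these lists can be read. The B cell score was 0.79 at D0, 1.65 at D2 and 1.31 at D3, with 3 of 3 markers called higher at D2 and 1 of 3 at D3. The part of these groups in the Cdkn1a, Sesn2 and Bax values was not tested. At D3 in lung limma also called 0 of 6 amino acid and endoplasmic reticulum stress genes (1 with an unadjusted p under 0.05), 0 of 5 immediate early genes (0 under 0.05) and 0 of 5 genes of the aryl hydrocarbon receptor battery (1 under 0.05), the genes that BaA is known to induce through that receptor. The score of the battery was -0.11 ± 0.09 (SD, n = 5) at D0, 0.43 ± 0.81 at D1, -0.21 ± 0.28 at D2 and -0.20 ± 0.15 at D3. The D1 lungs spread from -0.52 to 1.27.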

How the data were processed

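RNA of 58 tissue pieces (Cy5) was hybridised with a common mouse reference RNA (Cy3) on 2-colour Agilent arrays without dye swaps. The deposited value table, used here for all results, holds log2 ratios that the authors made by LOWESS of median signals without background subtraction, for 55681 probes with 0 missing values. Its column medians ran from -0.0445 to -0.0222, and it correlated with ratios rebuilt from the scanner files at r = 0.995 to 0.998, which settles scale and direction. The deposited scanner files give intensity per spot and, per the file headers, a log10 ratio from Feature Extraction 10.7.3.1. Probes were named by matching SystematicName to RefSeq accessions.

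Each tissue was fitted with its 4 dose groups in limma 3.58.1 (R 4.3.3), with a slope on dose as a further fit. D3 changes between tissues and D0 levels came from a joint fit of 12 groups. P-values were adjusted by Benjamini-Hochberg over all probes tested, a probe being tested where 4 or more arrays of the tissue showed its Cy5 signal well above background. The MAANOVA package named in the study's methods was not used here. The study's thresholds were kept (adjusted p of at most 0.05 and 1.5-fold), except that slopes had no minimum fold change. The fits were tested on simulated data. Arrays carry no counts, so the number of arrays limits precision.

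All member probes are named. Further pathway genes are named when called, with 1 probe per gene (the brightest). For each Cdkn1a probe the 5 most alike genes in lung are named. The members and lists were chosen with earlier results of these data known. Scores are the mean log2 ratio of a list's genes.

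Mouse numbers pair tissues of 1 animal, per the labels. Deviations of the same mouse from its group means correlated at -0.03 to 0.16 for lung and liver, -0.12 to 0.20 for lung and forestomach and -0.11 to 0.10 for liver and forestomach. Replicates within a group are separate mice. Alternatives changed the source of the values, background, centring, filters, slide or mouse blocks, the arrays and the channel.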

Additional observations from a re-analysis of the deposited data

Results flagged for a closer look

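Among the 128 groups of 4 or 5 arrays examined for the tested member probes, 9 held a highest or lowest array that stood apart from the rest by Dixon's ratio, where chance alone gives about 1 in 20. For Cdkn1a (NM_007669) the liver of D1 mouse 10 was highest at -2.46, against -3.10 for the next, and the liver of D3 mouse 16 was highest at -2.60, against -3.14. For Cdkn1a (NM_001111099) the lung of D3 mouse 19 was highest at -0.84, against -1.12. Plk2 in the liver of the same D3 mouse 16 was lowest at -1.71, against -1.35. Gdf15 in forestomach was highest in D0 mouse 2 at -2.20, against -3.62, and in D2 mouse 15 at -2.70, against -3.62. Phlda3 in forestomach was lowest in D1 mouse 7 at -0.23, against 0.53. Trp53inp1 probe 2 was highest in the forestomach of D1 mouse 10 at -0.50, against -0.70, and in the liver of D0 mouse 5 at 0.36, against -0.14. The forestomachs of mice 2, 7, 10 and 15 were among the 10 pieces rich in glandular stomach markers, with scores of 5.95, 6.35, 5.11 and 6.11, and the part of that tissue in these values was not tested.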

How the results depend on the processing

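The number of member probes called in lung depended on the settings. At D2 the 1 call was 0 with median centring, only the 2 groups compared, the Cy5 channel alone or the lung arrays low in other-tissue markers. At D3 the 2 calls were 1 with no filter on dim probes, scanner loess, normexp background, Agilent processed signals, only the 2 groups compared or the Cy5 channel alone, and 0 with median centring or the low-marker arrays. The 3 lung slopes called were 0 with median centring. Leaving out each mouse in turn gave 0 to 1 calls at D2, 1 to 2 at D3 and 1 to 3 for the slope, with the slope at 1 without mouse 18. The 8 calls between D0 lung and forestomach were 3 with median centring, where Mdm2 turned to -0.0445 and Ccng1 to -0.0234. In liver, in forestomach and for the D3 change between tissues the number of member calls stayed at 0 under all alternatives run. The Cy5 channel alone, the low-marker arrays and the slide as a random block, the last run for D0 levels alone, were chosen after seeing the data.

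Median centring without loess moved the median of all lung probes by 0.18, 0.37 and 0.15 at D1, D2 and D3. Relative to that shift Cdkn1a (NM_007669) was at -0.42 at D2 and -0.50 at D3, and Sesn2 at -0.41 at D3. The Cdkn1a call at D3 in lung held under 29 of 31 alternatives, with values of -0.78 to -0.35. Over all lung probes at D3, 532 calls became 1121 with Agilent processed signals, 2605 with no minimum fold and 0 with median centring, and at D2 149 became 376, 537 and 0, and 73 without lung mice 5, 14, 16 and 17. The mouse as a replicate block (consensus correlation 0.037) left 0 member calls for the D3 change between tissues and 7, 8 and 6 between D0 tissues, as without it, for lung minus liver, lung minus forestomach and liver minus forestomach. Probes near background, such as Cdkn1a (NM_001111099), give compressed ratios, and Eda2r could not be read.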
